A study of Mus musculus with 10 samples.

Results

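Intraflagellar transport (IFT) genes, BBSome genes and the ciliary motor genes that serve them were examined across the cell classes of the old mouse inner ear. The 38 genes were chosen by symbol from a list of the known particle subunits, BBSome subunits and ciliary motors, by a rule that uses no measured value, and all 38 were found among the 32285 genes of the count matrices. They comprised 15 IFT-B genes, 6 IFT-A genes, 8 BBSome genes, 3 genes that assemble or recruit the BBSome (Bbs10, Bbs12 and Arl6) and 6 motor genes.

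IFT particles are trains of proteins that carry building blocks along the microtubules of a cilium. IFT-B trains are drawn to the ciliary tip by kinesin, IFT-A trains are needed for the return journey by a dynein, and the BBSome is a coat-like adaptor that rides on the trains and moves membrane proteins. In the inner ear, each vestibular hair cell (HC) keeps a true cilium, the kinocilium, beside its stereocilia, whereas cochlear HCs lose theirs as they mature, and most other cells can bear a primary cilium.

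Single-cell transcriptomes were captured from whole cochlear and vestibular sensory organs of wild-type CBA/J mice aged 22 months, an inbred strain with no transgene or treatment in either group. Each library pooled the tissue of 7 to 8 mice, so a library and not an animal is the replicate. Of the 5 libraries deposited per organ, replicates 1 and 2 shared nearly all of their cell barcodes (1313 in the cochlea, 1633 in the vestibule, against at most 41 in any other pair), differed by less than the sampling noise and were counted as 1 sample, which left replicates 1, 3, 4 and 5 of each organ (n = 4). No young mice are analysed here, so the comparisons are between cell types and organs and say nothing of change with age.

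Cells were named from marker genes after a clustering in which none of the 38 genes took part, so HC types and other classes are "like" their namesakes, a suffix kept below only for cells that are neither HCs nor supporting cells. The vestibule gave 1769 vestibular HCs (vHCs; 1490 type I and 279 type II HCs) and 549 supporting cells. The cochlea gave 119 cochlear HCs (cHCs; 42 inner HCs, IHCs, and 77 outer HCs, OHCs) and 822 supporting cells. All 6 HC markers were detected in every HC library sum (2992 to 3541 UMIs per 1000000 UMIs of the sum, CPM, in vHCs and 3792 to 4481 CPM in cHCs), whereas supporting cells held 318 to 432 CPM of them in the vestibule and 142 to 193 CPM in the cochlea. The part of those HC transcripts in the supporting cell levels given below was not tested. Unique molecular identifiers (UMIs) were summed per library and population, and the sums ran from 788301 to 3627665 UMIs for vHCs, 71635 to 411030 for cHCs, 191929 to 887593 for vestibular and 269853 to 1770333 for cochlear supporting cells. The cHC sums were thus the shallowest, and a single UMI was worth 14.0 CPM in cHC replicate 1, as the level of Bbs5 there shows.

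Promoter sequences were taken from RefSeq (GRCm38.p6; 250 bases before to 50 after the transcript start, 300 in all), which held 34 of the 38 genes with 35 promoters; Ift80, Ift81, Ift122 and Dync2li1 were missing. Of these, 5 are printed 5′ to 3′ on the strand of their gene, all in lower case with no part marked: Ttc26, Bbs7, Wdr19 and Ift22 as genes higher in vHCs than in vestibular supporting cells, and Kifap3 as the member whose levels ran differently in the cochlea. They lie at chr6:38381274-38381573 (Ttc26, plus strand), chr3:36613340-36613639 (Bbs7, minus strand), chr5:65199446-65199745 (Wdr19, plus strand), chr5:136907900-136908199 (Ift22, plus strand) and chr1:163779333-163779632 (Kifap3, plus strand). No motif was searched in them and no binding was measured.
Ttc26 promoter: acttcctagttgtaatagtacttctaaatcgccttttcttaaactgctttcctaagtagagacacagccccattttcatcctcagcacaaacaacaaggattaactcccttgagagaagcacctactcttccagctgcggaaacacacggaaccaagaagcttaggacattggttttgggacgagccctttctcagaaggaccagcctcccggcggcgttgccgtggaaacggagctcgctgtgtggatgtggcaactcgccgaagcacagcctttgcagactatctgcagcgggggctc
Bbs7 promoter: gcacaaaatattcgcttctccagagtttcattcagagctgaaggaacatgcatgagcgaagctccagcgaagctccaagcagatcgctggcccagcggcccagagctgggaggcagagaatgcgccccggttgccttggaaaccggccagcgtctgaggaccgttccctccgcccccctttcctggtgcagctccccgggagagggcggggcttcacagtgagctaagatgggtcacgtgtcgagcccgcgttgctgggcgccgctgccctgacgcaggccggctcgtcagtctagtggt
Wdr19 promoter: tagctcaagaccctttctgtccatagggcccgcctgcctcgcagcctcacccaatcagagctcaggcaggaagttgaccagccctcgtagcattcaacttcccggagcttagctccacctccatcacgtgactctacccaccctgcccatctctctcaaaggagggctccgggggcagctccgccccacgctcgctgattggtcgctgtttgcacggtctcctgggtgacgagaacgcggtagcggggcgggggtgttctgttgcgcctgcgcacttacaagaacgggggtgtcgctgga
Ift22 promoter: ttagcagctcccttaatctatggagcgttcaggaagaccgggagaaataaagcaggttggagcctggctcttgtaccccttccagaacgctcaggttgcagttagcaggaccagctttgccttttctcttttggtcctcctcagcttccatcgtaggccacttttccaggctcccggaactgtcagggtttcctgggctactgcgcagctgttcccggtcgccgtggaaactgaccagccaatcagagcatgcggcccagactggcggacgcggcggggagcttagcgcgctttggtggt
Kifap3 promoter: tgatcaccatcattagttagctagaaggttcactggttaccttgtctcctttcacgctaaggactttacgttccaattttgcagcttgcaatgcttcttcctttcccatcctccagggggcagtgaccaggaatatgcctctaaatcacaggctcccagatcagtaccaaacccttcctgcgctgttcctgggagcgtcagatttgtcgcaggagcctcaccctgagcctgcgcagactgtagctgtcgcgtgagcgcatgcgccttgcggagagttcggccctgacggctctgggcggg

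Summed over the 38 genes, vHCs held 3384, 3422, 3904 and 3649 CPM in replicates 1, 3, 4 and 5 (3590 ± 240, SD, n = 4). Vestibular supporting cells held 1127, 1175, 1323 and 1110 CPM (1184 ± 96.8), cHCs 949, 2066, 2031 and 1768 CPM (1703 ± 520) and cochlear supporting cells 856, 876, 989 and 944 CPM (916 ± 61.5). Every vHC library lay above every library of the other 3 populations, and the lowest cHC library, replicate 1, lay within the range of cochlear supporting cells. Type I HCs (3361 to 3915 CPM) and type II HCs (3313 to 3851 CPM) overlapped. IHCs, with enough cells for a sum in replicates 3 and 4, held 2328 and 2288 CPM, and OHCs held 949, 1071, 1313 and 1336 CPM, so cHC replicate 1, which consisted of 24 OHCs and no IHC, sat at the OHC level. This split leaves out 72 cochlear HCs with supporting cell markers, 21 of them in replicate 1. The IHC marker Slc17a8 was found in 91.7% of the 72 and the OHC marker Slc26a5 in 5.56%, so most were IHC-like.

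**Figure D1:**
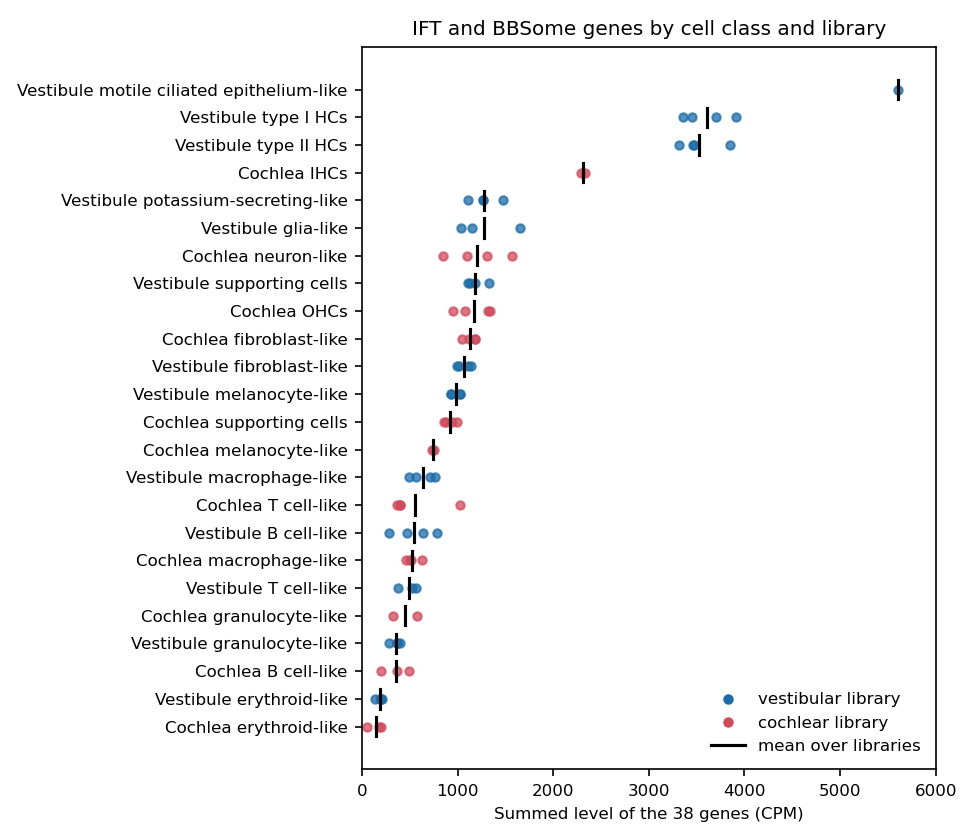
Summed level of the 38 genes in CPM (x axis) for each cell class (rows), with 1 point per library holding at least 5 cells of the class (blue, vestibule; red, cochlea) and a black bar at the mean. Motile ciliated epithelium-like cells (1 library, 5611 CPM) lie highest, type I and type II HCs follow between 3313 and 3915 CPM, and every other class drawn lies at or under 2328 CPM. HCs without a type (up to 2552 CPM) and cochlear HCs with supporting cell markers (up to 2164 CPM) are not drawn.

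Across the other classes, the summed level was 5611 CPM in the motile ciliated epithelium-like cells, 104 of whose 108 cells came from vestibular replicate 3, so that this class had no replicate. Glia-like (1275 ± 327 CPM, n = 3), potassium-secreting epithelium-like (1279 ± 151 CPM, n = 4), neuron-like (1203 ± 308 CPM, n = 4) and cochlear fibroblast-like cells (1132 ± 62.8 CPM, n = 4) had means in the range of vestibular supporting cells, 1110 to 1323 CPM, and vestibular fibroblast-like cells (1062 ± 70.1 CPM, n = 4) had a mean below it. Macrophage-like cells held 631 ± 122 CPM in the vestibule and 523 ± 71.7 CPM in the cochlea, and erythroid-like cells held the least, 182 ± 29.9 and 143 ± 77.7 CPM (n = 4 and 3). Over 22 classes, with vHCs and cHCs as 1 class each, the mean level was highest in the motile ciliated epithelium-like cells for 21 members, in vHCs for 12 and in cHCs for 1 (Kifap3), and vHCs ranked second for 16 others. The markers of motile ciliated epithelium were partly shared with vHCs. Sntn and Tmem212, at 690 and 1141 CPM in the ciliated cluster, were at 0 in 2 of the 4 vHC libraries and at or below 0.733 CPM in the others, whereas Foxj1 (109 to 160 CPM) and Dynlrb2 (332 to 424 CPM) were present in all 4.

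Counted per cell after each cell was thinned to 1000 UMIs, which removes the difference in depth, transcripts of 3.21 of the 38 genes were found in a vHC on average (type I 3.25, type II 3.03), 4.92 in a motile ciliated epithelium-like cell, 2.33 in an IHC, 1.17 in an OHC, 1.14 in a vestibular and 0.821 in a cochlear supporting cell, and 0.557 and 0.459 in vestibular and cochlear macrophage-like cells. Before thinning, the median cell held 4048 UMIs in vHCs, 3759 in cHCs, 2182 and 2139 in vestibular and cochlear supporting cells and 2766 and 2399.5 in the macrophage-like cells.

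In the vestibule, vHCs were compared with the supporting cells beside them. Tested with edgeR's quasi-likelihood test and Benjamini-Hochberg adjustment over 9187 genes, 27 of the 38 genes were higher in vHCs and 0 lower (27 and 0 at an unadjusted p under 0.05, and 1 lower by DESeq2), while 29.5% of all genes tested were higher and 29.5% lower. Of the 38, 34 passed the filter on low counts, and Bbs10, Bbs12, Ttc21b and Kif17 did not. A gene could pass it on vHC counts alone. Before any filter, the mean CPM was higher in vHCs for 35 of the 38 genes, with a median log2 ratio of 1.55 (1 CPM added to each mean), against 58.7% of the genes tested and a median of 0.23. The genes that rose came from every group: 11 of 15 in IFT-B, 4 of 6 in IFT-A, 7 of 8 in the BBSome, Arl6 of 3 and 4 of 6 motors.

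Among IFT-B genes, Ift74, which together with Ift81 forms the tubulin-binding module of the train, lies at chr4:94614491-94693229 on the plus strand (GRCm38, GENCODE M21). It was at 289, 330, 504 and 431 CPM in vHCs (388 ± 97.3) and at 38.8, 53.0, 73.5 and 67.7 CPM in vestibular supporting cells, a log2 difference of 2.56 (adjusted p = 4.05e-10). The lowest vHC library stood far above the highest supporting cell library. Ift81 itself was at 161, 170, 176 and 154 CPM against 31.3 to 60.9 CPM (log2 1.54, adjusted p = 7.89e-08). Higher too, with no overlap between the groups, were Ift80 (log2 2.05), Ttc26 (1.99), Ift22 (1.66), Ift88 (1.60), Ift27 (1.48), Cluap1 (1.46), Ift172 (1.43), Traf3ip1 (1.33) and Ift20 (0.92), which cover the particle core (Ift88, Ttc26), its small GTPases (Ift22, Ift27), the peripheral subunits (Ift80, Ift172, Cluap1, Traf3ip1) and a subunit that also works at the Golgi (Ift20). Not called were Ift52 (log2 0.49, adjusted p = 0.0909) and Ift57 (0.49, adjusted p = 0.0893), although their vHC libraries lay above the supporting cell libraries, and Ift46 (-0.32) and Hspb11 (-0.30), the partner of Ift27, whose libraries overlapped. With the replicate as a block, which pairs HCs and supporting cells of the same pooled animals, Ift57 was called too (log2 0.48, adjusted p = 0.0157), which made 28 higher and 0 lower, against 32.4% and 32% of all genes.

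Of the IFT-A genes, Wdr19, a core scaffold subunit at chr5:65199696-65260415, had the largest fitted difference of the members tested. It was at 91.3, 89.6, 87.2 and 115 CPM in vHCs and at 16.6, 10.1, 13.4 and 15.6 CPM in supporting cells (log2 2.69 ± 0.26 SE, adjusted p = 1.25e-09). Ift122 (log2 1.48), Wdr35 (1.01) and Ift43 (0.98), the first a core and the others peripheral subunits, rose as well, and Ift140 was not called (0.32, adjusted p = 0.394). Ttc21b, a peripheral subunit at chr2:66184327-66256617, ran the other way without reaching the test, at 5.1, 5.8, 6.9 and 6.6 CPM in vHCs and 13.8, 10.1, 13.4 and 26.1 CPM in supporting cells. It was called lower once the filter was dropped (log2 -1.15, adjusted p = 0.0301) and by DESeq2 (-1.27, adjusted p = 0.0233). A UMI of Ttc21b was seen in 2.32% of vHCs (exact 95% interval 1.67 to 3.13%), no more than in vestibular macrophage-like cells (3.01%, 1.51 to 5.31%). Cochlear macrophage-like cells had a lower share (0.515%, 0.0625 to 1.85%). Whether the vHC level was background was not tested.

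Of the BBSome genes, 7 rose. Bbs5, a membrane-lipid-binding subunit, was at 50.7, 51.8, 30.8 and 45.5 CPM in vHCs and at 5.5, 12.4, 2.2 and 0 CPM in supporting cells (log2 2.41, adjusted p = 7.14e-06). Bbs9, a scaffold subunit, was at 25.4, 31.4, 31.4 and 53.5 CPM against 8.3, 4.5, 8.9 and 5.2 CPM (log2 2.26, adjusted p = 2.45e-05). Both pairs of groups were apart in every library. Bbs7 (log2 1.71), Bbs1 (1.56), Bbs4 (1.04), Ttc8 (0.94) and Bbs2 (0.78) were called higher, and Bbip1, the smallest subunit, was not (0.17, adjusted p = 0.427) although 100 to 120 CPM of it was present in vHCs. Arl6, the GTPase that recruits the BBSome to membranes, was at 183, 182, 142 and 177 CPM against 63.7, 33.8, 20 and 31.3 CPM (log2 2.03, adjusted p = 1.73e-08). Bbs10 and Bbs12, chaperonin-like proteins that help to assemble the BBSome, were too low to test, Bbs12 at 15.2, 7.7, 5.0 and 6.6 CPM in vHCs and 0, 7.9, 15.6 and 5.2 CPM in supporting cells, which overlapped, and Bbs10 at 7.7 to 14 CPM in vHCs.

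The motors followed. Kif3a, a motor subunit of the main anterograde kinesin (chr11:53567379-53601967), was at 241, 243, 316 and 242 CPM in vHCs and at 49.8, 37.2, 51.2 and 26.1 CPM in supporting cells (log2 2.43, adjusted p = 9.82e-11). Dync2h1, the heavy chain of the retrograde dynein (chr9:6928503-7184446, minus strand), was at 259, 251, 246 and 266 CPM against 36.0, 60.8, 42.3 and 36.5 CPM (log2 2.23, adjusted p = 3.08e-10). In both genes every vHC library lay far above every supporting cell library, and Kif3a was higher in vHC replicate 4 than in the other 3. Kifap3, the accessory subunit that joins cargo to the same kinesin (chr1:163779583-163917109), was at 185, 233, 296 and 276 CPM against 60.9, 66.5, 95.8 and 120 CPM (log2 1.42, adjusted p = 3.1e-06), and Dync2li1, the light intermediate chain of the dynein, also rose (log2 0.80). Kif3b, the partner motor of Kif3a, was at 20.7 to 26.4 CPM and was not called (log2 0.35, adjusted p = 0.348). Kif17, another ciliary kinesin (chr4:138250435-138301967), was at 15.2, 5.0, 9.4 and 7.3 CPM in vHCs and at 5.5, 0, 0 and 0 CPM in supporting cells. Its reads cannot be parted with certainty from those of Sh2d5, nor those of Cluap1 from Gm20695, coding genes that overlap them on the same strand.

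**Figure D2:**
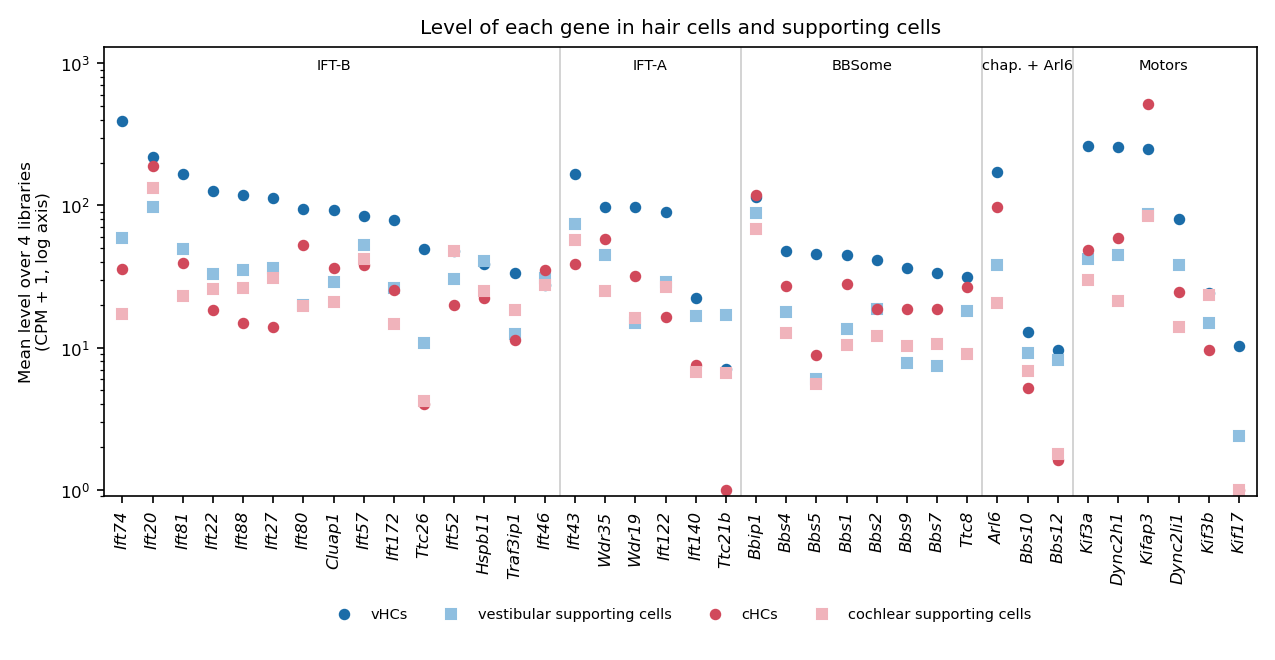
Mean level over 4 libraries (CPM + 1, log axis) of each of the 38 genes, grouped by complex, in vHCs (dark blue circles), vestibular supporting cells (light blue squares), cHCs (dark red circles) and cochlear supporting cells (light red squares). The vHC point lies highest for most genes, Kifap3 is highest in cHCs (517 CPM), and Kif17 and Ttc21b were at 0 in cHCs; points that coincide hide one another.

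Seen per cell, a UMI of Ift74 was found in 70.9% of vHCs (exact 95% interval 68.8 to 73.1%), 14.9% of vestibular supporting cells (12.1 to 18.2%) and 5.74% of vestibular macrophage-like cells (3.59 to 8.64%), and in 31.0%, 4.92% and 0.82% after thinning to 1000 UMIs. It was found in 19.3% of cHCs (12.7 to 27.6%) and 3.09% of cochlear macrophage-like cells. A UMI of Kif17 was found in 2.94% of vHCs (2.2 to 3.84%) and in 0 of 366 vestibular macrophage-like cells, which allows a share of up to 0.82%. These intervals cover counting error only, as do the limits, which are 3 counts over the number of cells and not exact intervals.

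Macrophage-like cells served as a class not known for cilia. Against them, 32 of the 38 genes were higher in vHCs and 0 lower, by edgeR at the adjusted or unadjusted threshold and by DESeq2 (34 tested of 9057 genes), while 42.3% of all genes tested were higher and 23.4% lower and the median gene was shifted by 0.42 on the log2 scale. Macrophage-like sums ran from 46106 to 849981 UMIs, and a gene could pass the filter on vHC counts alone. Before any filter, the mean CPM was higher in vHCs for 36 of the 38 genes and lower for 2, with a median log2 ratio of 2.78. Of the genes tested, 65.7% had a higher mean, with a median of 0.53. Ttc8, a BBSome subunit, was at 0 in all 4 macrophage-like libraries and had 217 UMIs in vHCs, at least 15.7-fold higher when set against 3 counts over the 4 libraries. Wdr19 was at 0, 2.35, 3.63 and 4.65 CPM in macrophage-like cells, 5 UMIs in all (log2 4.70). Ift74 was at 43.4, 15.3, 32.7 and 6.98 CPM (log2 4.30). Ttc26, at 0, 2.35, 0 and 0 CPM, and Bbs5, at 0, 0, 3.63 and 4.65 CPM, rested on 2 and 3 UMIs there and are given without a fold. All 4 genes stayed below every vHC library. Relative to the shift of the median gene in the test, 0.42, the log2 differences were smaller by that amount.

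Vestibular HC types were compared next. Between type I and type II HCs, 2 of the 38 genes were higher in type I and 1 lower (34 tested of 7948), against 8.23% and 9.44% of all genes tested, so the share was at or under that background. Kif3a was at 251, 259, 331 and 267 CPM in type I and 195, 170, 240 and 157 CPM in type II HCs (log2 0.64, adjusted p = 0.00639), without overlap. Bbs9 was at 31.5, 34.1, 34.8 and 59.9 CPM against 6.5, 19.6, 14.7 and 32.1 CPM (log2 1.06, adjusted p = 0.0324), with the highest type II library reaching into the type I range. Ift122 ran the other way, at 78.8, 69.5, 96.1 and 75.1 CPM in type I and 124, 111, 111 and 148 CPM in type II HCs (log2 -0.55, adjusted p = 0.0312). None of these calls held with every library left out in turn, although the log2 differences kept their sign. Bbs9 was lost without replicate 1, 3 or 4 (log2 0.97, 1.15 and 1.03, adjusted p = 0.0543, 0.127 and 0.0944). Without replicate 3 or 5, Kif3a (log2 0.61 and 0.58, adjusted p = 0.0705 and 0.0582) and Ift122 (log2 -0.54 and -0.42, adjusted p = 0.164 and 0.231) were lost.

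Because both types came from the same libraries, the pairing mattered here. With the replicate as a block, 6 genes were higher in type I HCs and 3 lower, against 12% and 13% of all genes tested under the same fit. Added were Ift74 (log2 0.50, adjusted p = 0.000118), Ift27 (0.49, adjusted p = 0.00898), Ift80 (0.46, adjusted p = 0.0246) and Dync2h1 (0.41, adjusted p = 0.0038) as higher, and Bbip1 (-0.41, adjusted p = 0.015) and Kifap3 (-0.35, adjusted p = 0.00675) as lower. Within each library, Ift74 was higher in type I than in type II HCs (303 against 234, 342 against 278, 530 against 376 and 465 against 314 CPM), and Kifap3 was lower (167 against 254, 219 against 296, 281 against 368 and 259 against 334 CPM). The type II libraries held 5364 to 6798 CPM of the 2 type I markers (34322 to 43183 CPM in type I HCs) and 748 to 932 CPM of the 8 supporting cell markers (46.6 to 98.3 CPM in type I HCs), and the part of either in these differences was not tested.

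In the cochlea the same comparison gave another picture. Between cHCs and cochlear supporting cells, only 11 of the 38 genes passed the filter, among 5092 tested. Among these 11, 4 were higher in cHCs and 1 lower, against 21.2% and 23.8% of all genes tested. The rest of the 38 were not tested. Kifap3 was at 112, 766, 587 and 603 CPM in cHCs (517 ± 282) and at 51.9, 85.9, 99.1 and 93.7 CPM in supporting cells (log2 2.57, adjusted p = 2.29e-05). Arl6 was at 27.9, 99.7, 106 and 151 CPM against 29.6, 14.7, 15.8 and 17.6 CPM (log2 2.38, adjusted p = 2.37e-05), with replicate 1 inside the supporting cell range. Dync2h1 was at 55.8, 97.3, 48.1 and 30.1 CPM against 25.9, 15.3, 20.3 and 19.5 CPM (log2 1.80, adjusted p = 0.000359), without overlap. Wdr35 was at 27.9, 92.5, 48.1 and 60.3 CPM against 22.2, 33.9, 20.3 and 19.5 CPM (log2 1.27, adjusted p = 0.00702). The IFT-B core subunit Ift52 was the one lower gene, on 14 UMIs in cHCs. It was at 14.0, 21.9, 19.3 and 20.1 CPM in cHCs and 44.5, 44.6, 51.8 and 44.9 CPM in supporting cells (log2 -1.28, adjusted p = 0.00583). Every cHC library lay below every supporting cell library. With the replicate block Ift43 was also lower (log2 -1.16, adjusted p = 0.0217), which made 4 higher and 2 lower, against 23.7% and 26.4% of all genes. Before any filter, the mean CPM was higher in cHCs for 23 of the 38 genes and lower for 14, with a median log2 ratio of 0.66, against 54% and 0.11 for the genes tested. The counts leaned on single libraries, from 1 higher and 0 lower without replicate 3 (4 genes tested) to 7 higher and 3 lower without replicate 1 (18 tested).

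The excess of Kifap3 in cHCs lay in the IHCs. IHCs held 950 and 745 CPM in replicates 3 and 4, whereas OHCs held 112, 69.9, 146 and 127 CPM, and no value of one type came near the other. All 42 IHCs had a UMI of Kifap3 (exact 95% interval 91.6 to 100%), against 22.1% of 77 OHCs (13.4 to 33.0%) and 10.1% of cochlear macrophage-like cells. Since the median IHC held 10373 UMIs and the median OHC 2617, the shares were also taken at 1000 UMIs, where they were 59.5% and 9.09%. With OHCs as the only cHCs, a comparison added after the data were seen, the difference from cochlear supporting cells was 0.21 on the log2 scale (adjusted p = 0.661), and only 3 of the 38 genes could be tested at that depth. The sums of the 42 IHCs and 77 OHCs, 454033 and 232081 UMIs in all, held 366 and 24 UMIs of Kifap3. Of members picked after their values were seen, Wdr35 had 41 and 6 UMIs, Ift46 22 and 1 and Hspb11 21 and 1, while Ift20 had 87 and 38 and Bbip1 47 and 28. IHCs and OHCs were not tested against each other, with IHC sums in 2 libraries only after IHC-like cells with supporting cell markers were left out.

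**Figure D3:**
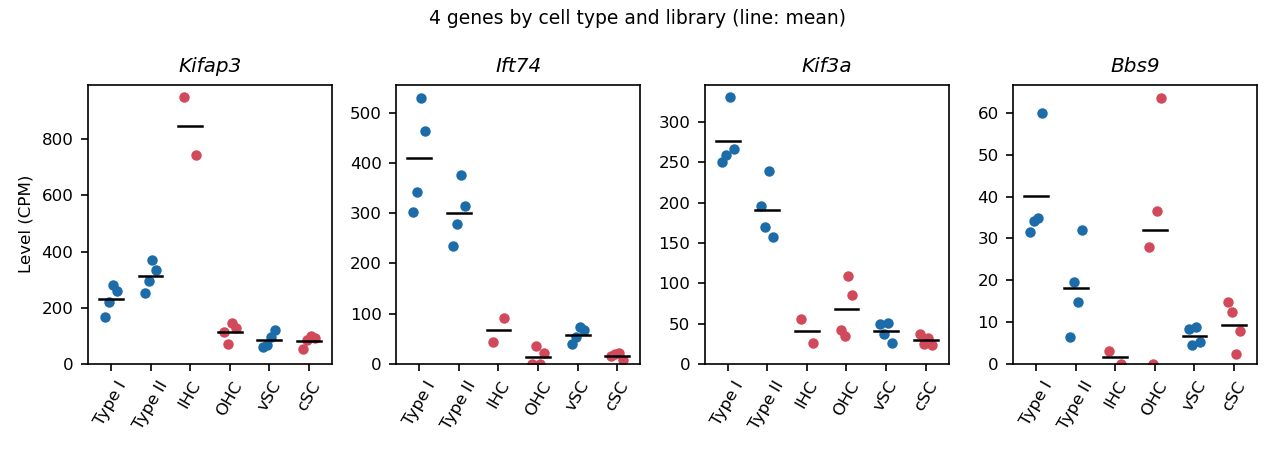
Levels in CPM (y axes, each starting at 0) of Kifap3, Ift74, Kif3a and Bbs9 in type I HCs, type II HCs, IHCs, OHCs, vestibular supporting cells (vSC) and cochlear supporting cells (cSC), with 1 point per library (blue, vestibule; red, cochlea) and a line at the mean. Kifap3 is highest in the 2 IHC libraries (950 and 745 CPM), whereas Ift74 and Kif3a are highest in type I and type II HCs.

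HCs of the organs were then set side by side. In cHCs, 22 of the 38 genes were lower than in vHCs and 1 higher (34 tested of 7598). Of all genes tested, 17.8% were lower and 12% higher. A gene could pass the filter on vHC counts alone. Before any filter, the mean CPM was lower in cHCs for 35 of the 38 genes, with a median log2 ratio of -1.46, against -0.10 for the genes tested. The lower genes were 11 of IFT-B, 4 of IFT-A, 3 of the BBSome, Arl6 and 3 motors. These vHC and cHC sums also entered the comparisons with supporting cells, so the comparisons share samples.

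Ift74 fell furthest, to 0, 41.4, 67.4 and 30.1 CPM in cHCs from the vHC levels given above (log2 -3.29, adjusted p = 2.86e-07). Ift27, at chr15:78159463-78174107, was at 0, 12.2, 9.6 and 30.1 CPM in cHCs and 100, 120, 124 and 106 CPM in vHCs (log2 -3.05, adjusted p = 2.13e-06). Ift88 was at 14.0, 21.9, 9.6 and 10.0 CPM against 95.1, 104, 156 and 115 CPM (log2 -2.73, adjusted p = 5.91e-06). In none of these did a cHC library reach a vHC library. Ttc26 (chr6:38381469-38427647) was at 0, 12.2, 0 and 0 CPM against 62.2, 33.9, 44.6 and 54.3 CPM (log2 -2.64, adjusted p = 0.00108), and Bbs5 at 14.0, 7.3, 0 and 10.0 CPM against the vHC values above (log2 -2.56, adjusted p = 0.000721). In cHCs, Ttc26 and Bbs5 rested on 5 UMIs each, those of Ttc26 all in replicate 3, Ift27 on 9 and Ift88 on 12. Ift140, called lower too, rested on 3. The sizes of these differences are therefore uncertain. Kif3a was at 41.9, 51.1, 48.1 and 50.2 CPM in cHCs, every cHC library below every vHC library (log2 -2.37, adjusted p = 3.29e-07). Ift20 (168 to 241 CPM in cHCs, log2 -0.17, adjusted p = 0.6) and Bbip1 (83.8 to 183 CPM, log2 0.06, adjusted p = 0.889) overlapped the vHCs and were not called. Kif17 and Ttc21b were at 0 in every cHC library. Kif17 was at least 1.71-fold higher in vHCs (55 UMIs) when set against 3 counts over the 4 cHC libraries. Ttc21b had 45 UMIs in vHCs, where its share of cells was no more than in vestibular macrophage-like cells, and no fold is given for it. For both genes, 0 of 119 cHCs with a UMI allows a share of up to 2.52%, taken as 3 counts over the cells (exact 95% interval up to 3.05%).

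Kifap3 was the one gene called higher in cHCs (log2 1.16, adjusted p = 0.00906), and its groups overlapped, since cHC replicate 1 lay at 112 CPM, below every vHC library. The call was lost without cochlear replicate 3, which held 33 of the 42 IHCs (log2 0.78, adjusted p = 0.102), and with DESeq2 (log2 1.03, adjusted p = 0.0776). With OHCs only, the sign turned: Kifap3 was lower in OHCs than in vHCs (log2 -1.30, adjusted p = 0.00101). IHCs numbered 0, 33, 5 and 4 in replicates 1, 3, 4 and 5, beside 24, 31, 8 and 14 OHCs. The mostly IHC-like HCs left out for their supporting cell markers numbered 21, 30, 9 and 12. With mixed clusters kept as HCs, Kifap3 was higher in cHCs than in vHCs by log2 1.47 (edgeR adjusted p = 6.42e-05). With OHCs only, Ift80 (log2 -1.47) and Wdr35 (-1.92) were lower too, as was Hspb11, which rested on 1 UMI in OHCs and is given without a fold. None of the 3 was called with IHCs included.

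Supporting cells differed less between organs. Of the 38 genes, 20 could be tested. Among these 20, 5 were lower in cochlear than in vestibular supporting cells and 1 higher, against 17.3% and 12% of all 6140 genes tested. Before any filter, the mean CPM was lower in cochlear supporting cells for 31 of the 38 genes and higher for 7, with a median log2 ratio of -0.41, against -0.01 for the genes tested, of which 49.4% were higher. The lower genes were Ift74 (14.8, 19.2, 22.5 and 7.8 CPM against 38.8, 53.0, 73.5 and 67.7 CPM, log2 -1.71), Dync2li1 (7.4, 11.3, 15.8 and 17.6 CPM against 38.8, 47.3, 35.6 and 26.1 CPM, -1.57), Dync2h1 (-1.31), Ift81 (22.2, 21.5, 27.0 and 17.6 CPM against 60.9, 48.4, 51.2 and 31.3 CPM, -1.14) and Arl6 (-1.03). In Ift74, Ift81 and Dync2li1 every cochlear library lay below every vestibular library. Ift52 was higher (44.5, 44.6, 51.8 and 44.9 CPM against 27.7, 28.2, 31.2 and 31.3 CPM, log2 0.68, adjusted p = 0.0436), a call lost without any one of 7 of the 8 libraries, and Arl6 was lost without any one of 5 (cochlear replicates 3, 4 and 5 and vestibular replicates 1 and 3). The vestibular supporting cell sums also held more HC marker transcripts than the cochlear ones, as given above, and their part in these differences was not tested.

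Whether HCs stood further above supporting cells in the vestibule than in the cochlea was tested by an interaction term over all 16 sums. The difference was larger in the vestibule for 11 of the 38 genes and smaller for 0 by edgeR (1 at an unadjusted p under 0.05, Kifap3, and 0 by DESeq2; 32 tested of 8139), against 8.21% and 10.3% of all genes tested. In order of size these were Ift27 (log2 2.82, adjusted p = 0.00014), Bbs9 (2.37, adjusted p = 0.0419), Ift43 (2.24, adjusted p = 0.00177), Ift88 (2.19, adjusted p = 0.00208), Traf3ip1 (2.04, adjusted p = 0.0279), Ift22 (1.91, adjusted p = 0.00886), Ift52 (1.85, adjusted p = 0.00208), Ift122 (1.80, adjusted p = 0.00843), Kif3a (1.77, adjusted p = 0.000706), Ift74 (1.57, adjusted p = 0.0342) and Wdr19 (1.53, adjusted p = 0.0246), 6 of them IFT-B and 3 IFT-A genes. The order is uncertain, since in cHCs Bbs9 rested on 7 UMIs, Traf3ip1 on 8, Ift27 on 9, Ift88 on 12 and Ift52 on 14. Ift22 and Ift122 rested on 16 each, Ift43 on 18, Wdr19 on 26, Ift74 on 27 and Kif3a on 34. A gene could pass the filter on vHC counts alone. Of the 11 called, only Ift43, Ift52 and Kif3a had passed it between cHCs and cochlear supporting cells. Ift43 shows the pattern by library: 151, 158, 194 and 153 CPM in vHCs against 49.8, 60.8, 111 and 67.7 CPM in vestibular supporting cells, but 41.9, 12.2, 57.8 and 40.2 CPM in cHCs against 22.2, 58.2, 65.3 and 78.1 CPM in cochlear supporting cells. Ift22 behaved alike, at 134, 114, 134 and 118 CPM in vHCs and 44.3, 32.7, 40.1 and 10.4 CPM beside them, and at 27.9, 31.6, 9.6 and 0 CPM in cHCs and 40.8, 24.9, 13.5 and 19.5 CPM beside them. Traf3ip1, a microtubule-binding subunit, was at 15.2, 31.7, 43.9 and 38.1 CPM in vHCs and 0, 12.2, 19.3 and 10.0 CPM in cHCs, against 10.4 to 13.4 CPM and 14.8 to 23.4 CPM in the supporting cells. Ift122 was at 86.3, 77.2, 98.5 and 91.7 CPM in vHCs and 0, 31.6, 9.6 and 20.1 CPM in cHCs, against 15.6 to 38.8 CPM and 23.4 to 29.6 CPM. For Ift43, Ift22, Traf3ip1 and Ift122, every vHC library stood above every vestibular supporting cell library, while the cHC libraries overlapped those of cochlear supporting cells.

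For the other genes of the interaction, HC levels stand above. Beside them, Ift27 was at 24.9, 31.5, 49.0 and 36.5 CPM in vestibular and 22.2, 26.0, 38.3 and 33.2 CPM in cochlear supporting cells. Ift88 was at 30.5, 31.5, 42.3 and 31.3 CPM and at 29.6, 18.1, 36.0 and 17.6 CPM. In both genes the supporting cell levels overlapped between the organs and the HC levels did not. Kif3a was at 37.1, 24.3, 31.5 and 23.4 CPM in cochlear supporting cells, below its cHC libraries. Wdr19 was at 27.9, 46.2, 38.5 and 10.0 CPM in cHCs and 14.8, 12.4, 13.5 and 19.5 CPM in cochlear supporting cells. Bbs9 was at 27.9, 2.43, 9.63 and 30.1 CPM in cHCs and 14.8, 12.4, 2.25 and 7.81 CPM in cochlear supporting cells, which overlapped. Ift52 was at 35.5, 41.6, 54.0 and 55.0 CPM in vHCs. The calls of Bbs9 (log2 0.98, adjusted p = 0.616), Ift43 (1.58, adjusted p = 0.0628), Traf3ip1 (2.35, adjusted p = 0.103) and Ift74 (1.55, adjusted p = 0.192) were lost without cochlear replicate 3. Traf3ip1 and Wdr19 were also lost without cochlear replicate 5, Bbs9 and Wdr19 without vestibular replicate 3, and Bbs9 without vestibular replicate 5. Ift27, Ift88, Ift22, Ift52, Ift122 and Kif3a were thus called with any 1 library left out. In cHCs these genes, Kif3a aside, rested on 9 to 16 UMIs.

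Kifap3 had the opposite sign and did not pass (log2 -1.09, adjusted p = 0.0993). It was called smaller in the vestibule with the replicate block (-1.14, adjusted p = 0.00064) and larger with OHCs only (1.45, adjusted p = 0.0122). The block also called Bbs5 larger (2.20, adjusted p = 0.049), which made 12 larger and 1 smaller, against 11.1% and 13.1% of all genes. With at least 2000 UMIs per cell, 6 were larger and 1, Kifap3, smaller (-1.41, adjusted p = 0.0278), and the share of all genes at that setting is not given. Lost at that depth were Bbs9 (2.19, adjusted p = 0.0594), Kif3a (1.16, adjusted p = 0.0592), Ift22 (1.26, adjusted p = 0.0904), Wdr19 (0.72, adjusted p = 0.314) and Ift74 (0.54, adjusted p = 0.545).

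**Figure D4:**
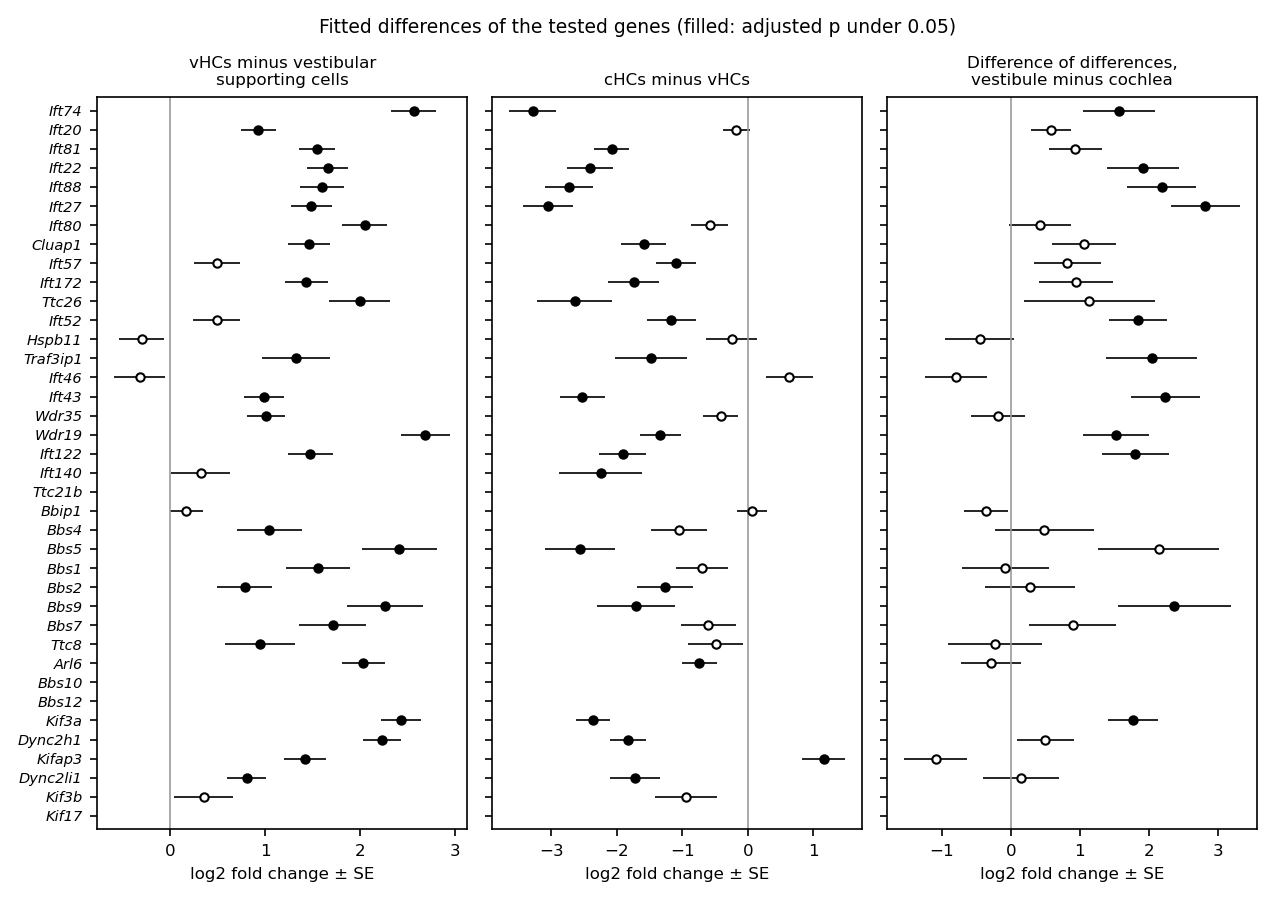
Fitted log2 differences ± SE (x axes) of the genes that could be tested, in the order of the plot of levels, for vHCs minus vestibular supporting cells (left), cHCs minus vHCs (middle) and the difference of HC-minus-supporting-cell differences, vestibule minus cochlea (right). Filled points passed an adjusted p under 0.05; 27 lie right of 0 on the left, 22 left of 0 in the middle and 11 right of 0 on the right, and rows without a point were not tested.

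Other genes of the cilium were counted from fixed lists. Of 17 further IFT, BBSome and motor genes, 9 were higher in vHCs than in vestibular supporting cells and 1 lower, led by Ttc21a, a relative of Ttc21b (369 against 9.02 CPM, log2 5.23), the dynein light chain Dynlrb2 (3.63) and the dynein intermediate chain Wdr60 (2.07). Ttc21a thus ran opposite to Ttc21b in the means of these populations. Of 15 ciliary GTPases and cargo adaptors, 5 were higher and 3 lower. Rabl2 (3.06), Unc119b (1.54) and Arl13b (1.11) were among the higher genes, and the lower ones are not named. Of 20 transition zone genes, which gate the ciliary base, 14 were higher and 0 lower (Rpgr, 3.57; Nphp4, 2.80; Rpgrip1l, 2.52). Of 16 motile axoneme genes all 16 were higher (Spag6l, 5.83; Ccdc39, 5.42; Drc1, 4.87), and of 7 ciliary transcription factors 5 were higher and 0 lower (Foxj1, 4.22; Rfx3, 2.40; Rfx2, 1.87). The background of 29.5% in each direction applies to all of these counts. Tested were 13, 14, 17, 16 and 6 genes, in the order of the lists. The GTPases and adaptors, with a median log2 difference of -0.17, stayed near the background.

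In cHCs against vHCs the lists gave 9 lower and 2 higher of 17, 6 and 0 of 15, 11 and 2 of 20, 16 and 0 of 16, and 2 and 0 of 7, in the same order, while 17.8% of all genes tested were lower and 12% higher. Tested were 13, 12, 17, 16 and 4 genes of the lists, and a gene could pass the filter on vHC counts alone. No motile axoneme gene could be tested between cHCs and cochlear supporting cells. Foxj1 was at 0 in all 4 cHC libraries and at 109 to 160 CPM in vHCs. Between type I and type II HCs, against 8.23% higher and 9.44% lower of all genes tested, they gave 2 higher and 1 lower, 2 and 0, 0 and 0, 6 and 2, and 0 and 0 in that order. With the replicate block the counts were 4 and 1, 2 and 1, 0 and 0, 7 and 3, and 0 and 0, against 12% and 13%. The 2 motile axoneme genes that were lower without the block were Cfap45 (14.2 against 342 CPM, log2 -4.58) and Cfap52 (110 against 392 CPM, -1.77).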

How the data were processed

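Droplet single-cell libraries (10x 3′ chemistry) were aligned to mm10 with Cell Ranger 6.1.2 per the labels, whereas per the file headers replicates 1 and 2 came from 5.0.1. The deposited values are raw UMI counts per gene and cell, made by the authors without normalization. The libraries held 1130 to 12397 barcodes and 2592425 to 26974948 UMIs. Replicates 1 and 2 of each organ were counted as 1 sample (rounded mean of both files, chi-square per gene 0.127 and 0.122 against 35.6 and 55.5 for replicates 1 and 4).

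Cells with at least 200 genes, 1000 UMIs and at most 25% mitochondrial counts were clustered per organ with Seurat 5.3.0 (2000 variable genes less the 38 members and all context genes, 30 components, resolution 1, and 0.5 for HCs) and named from markers. Type I and II HCs were split by Adam11 and Sox2, with only 2 markers listed for type I, and IHCs and OHCs by Slc17a8 and Slc26a5. No doublet caller was run. Instead, 277 vestibular and 72 cochlear HCs with supporting cell markers were left out, as were 228 vestibular and 31 cochlear HCs without a type. The cluster of 72 cochlear cells carried IHC markers and was named IHC when mixed clusters were kept. In the vestibule, a cluster of 287 HCs with supporting cell markers had no type at that setting. Sums per library and population needed 5 cells, and levels are CPM of the sum.

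Sums were tested on all genes with edgeR 4.0.16 (R 4.3.3; quasi-likelihood, TMM, filterByExpr, Benjamini-Hochberg, adjusted p under 0.05), after tests on simulated data. P-values measure the spread between pools of mice. An SE given with a fitted difference is that difference, without its sign, over the square root of the test's F statistic. DESeq2 1.42.0, no filter, a minimum of 2000 UMIs, resolution 2, a replicate block, mixed clusters kept and libraries left out were alternatives. Same-numbered populations of an organ come from the same library, which pairs them: their deviations correlated at 0.308, 0.132, 0.227 and 0.134 (vHCs, supporting cells), 0.255, 0.184, 0.215 and 0.0914 (cochlea), 0.288, 0.192, 0.259 and 0.246 (types) and 0.0848, 0.056, 0.122 and 0.155 (vHCs, macrophage-like cells). The rule for the members uses no measured value, but the members and lists were chosen with earlier results of these data known. Genes given with values in every library were the 3 most and the 3 least abundant members in vHCs, up to 5 called members with the largest change per comparison and direction, and the members called in the interaction. Others were chosen after their values were seen.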

Additional observations from a re-analysis of the deposited data

Results flagged for a closer look

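In groups of 4 libraries, 10 of the 127 groups tested held a library far from the other 3, where chance flags about 1 in 20. In vHCs these were Kif3a in replicate 4 (316 CPM, the others 241 to 243), Ift43 in replicate 4 (194 CPM, others 151 to 158) and Wdr19 in replicate 5 (115 CPM, others 87.2 to 91.3), and in type I HCs Bbs9 in replicate 5 (59.9 CPM, others 31.5 to 34.8). In vestibular supporting cells they were Ift88 in replicate 4 (42.3 CPM, others 30.5 to 31.5) and the sum of Bbs10, Bbs12 and Arl6 in replicate 1 (69.2 CPM, others 46.8 to 47.3), and in cochlear supporting cells Ift52 in replicate 4 (51.8 CPM, others 44.5 to 44.9) and Traf3ip1 in replicate 5 (23.4 CPM, others 14.8 to 15.8). Ttc26 was at 12.2 CPM in cHC replicate 3 and at 2.35 CPM in macrophage-like replicate 3 of the vestibule, and at 0 in the other 3 libraries of each.

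The difference between HCs and supporting cells was itself different between the organs, by the interaction term, for Ift27 (log2 2.82), Bbs9 (2.37), Ift43 (2.24), Ift88 (2.19), Traf3ip1 (2.04), Ift22 (1.91), Ift52 (1.85), Ift122 (1.80), Kif3a (1.77), Ift74 (1.57) and Wdr19 (1.53). The sizes for Bbs9, Traf3ip1 and Ift27 rest on 7, 8 and 9 UMIs in cHCs. Those for Ift88, Ift52, Ift22, Ift122 and Ift43 rest on 12 to 18.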

How the results depend on the processing

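Counts of members called are given as higher and lower. Between vHCs and vestibular supporting cells, 1 was lower (Ttc21b) without a filter, with DESeq2 and with mixed clusters kept. Between cHCs and cochlear supporting cells, 4 were lower without a filter, 2 higher with at least 2000 UMIs per cell, 2 lower with the replicate block, 7 higher and 2 lower with mixed clusters kept, and 0 and 0 with OHCs only (3 tested). Between type I and type II HCs there were 5 and 0 without a filter, 0 lower with DESeq2, 1 higher with 2000 UMIs, and 6 and 3 with the replicate block. Between cHCs and vHCs, 0 were higher with DESeq2 or OHCs only and 2 with mixed clusters kept, and Kifap3 turned to -1.30 with OHCs only. Between supporting cells of the organs, 0 were higher with DESeq2 or 2000 UMIs. For the interaction there were 6 higher and 1 lower with 2000 UMIs, and 1 lower with the replicate block and with mixed clusters kept. The causes were not tested, beyond the number of genes tested. A change of setting can also move the share of all genes called. That share is given only for the main fits and, beside some results, for the replicate block. A changed count is thus not read as a change particular to the members.

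Leaving out 1 library at a time gave 24 to 27 and 0 to 1 (vHCs, vestibular supporting cells), 1 to 7 and 0 to 3 (cHCs, cochlear supporting cells), 0 to 3 and 0 to 1 (types), 0 to 1 and 16 to 22 (cHCs, vHCs), 0 to 1 and 4 to 5 (supporting cells), 7 to 12 and 0 to 1 (interaction) and 27 to 30 and 0 to 0 (macrophage-like cells). For the interaction, the 7 came without cochlear replicate 3. The share of all genes called with a library left out is not given. Cochlear and vestibular libraries share only a number, so their pairing was not used. Each correlated best with its own number, at 0.0623, 0.0804, 0.126 and 0.0404 for HCs and 0.328, 0.207, 0.256 and 0.072 for supporting cells, a hint from the data and not the design. The replicate block gave 1 and 21 for cHCs against vHCs and, with Hspb11 added (-0.72, adjusted p = 0.0288), 1 and 6 for supporting cells. The share of all genes called is not given for either of these fits. Which genes changed for cHCs against vHCs, where the main fit gave 1 and 22, is not given. In the other comparisons the block changed no call beyond those named here and beside the results. Of the single-gene alternatives in which the gene was tested, 491 kept direction and side of the threshold, 51 lost the threshold and 1 reversed. Alternatives in which a gene could not be tested are not counted. Keeping mixed clusters could not be run for the types. Depth limits cHCs most, where 3 or fewer UMIs made up many levels.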
